A study of Mus musculus with 5 samples.

Results

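The genes described here were 9 members of the complement system, C1qa, C1qb, C1qc, C4b, C3, Cfb, Serping1, C3ar1 and C5ar1, chosen by symbol. Each symbol matched 1 row in the feature list of every library, out of 32285 features in the T cell libraries and 54987 in the whole-tumor libraries. Levels were read in 5 droplet single-cell RNA sequencing libraries from 4T1 tumors. The line used, 4T1-Thy1.1, is a mouse mammary carcinoma that carries the Thy1.1 surface marker, and it was grown orthotopically (mammary fat pad) in BALB/c mice, which have an intact immune system, 12 weeks old per the labels. Doxorubicin (DOX), an anthracycline, was given intravenously in 3 doses of 5 mg/kg, 3 days apart, and tumors were then binned as sensitive or resistant by their growth. Whole tumor was sequenced from saline-treated control, sensitive and resistant groups, and T cell libraries were prepared from sensitive and from resistant tumors, so that both T cell groups had received DOX and no T cell library of control mice was among them. Each T cell library pooled 3 tumors, from which other immune cells and Thy1.1+ cancer cells had been depleted on magnetic columns, so the macrophages, monocytes, neutrophils and cancer cells in them are cells left after a depletion aimed at them, while fibroblasts were not among the cells named for depletion. The whole-tumor library titled resistant had a source field that named a sensitive tumor, and the source field of the control library also named a sensitive tumor. The title and the DOX sensitivity field of the former both read resistant, and groups were taken from the titles. T cells were 51 of 488 kept cells in the control, 2 of 269 (0.743%) in the sensitive-labelled and 11 of 263 (4.18%) in the resistant-labelled library, and no measurement here settles the labels, so every whole-tumor comparison is given by label.

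Complement is a cascade of plasma and tissue proteins that tags and lyses targets and recruits leukocytes. In the classical pathway C1q, built from the chains of C1qa, C1qb and C1qc, binds antibody complexes or dying cells, and its proteases cleave C4 and C2 to form a convertase that cleaves C3. The alternative pathway amplifies C3 cleavage through factor B (Cfb), the C1 inhibitor (Serping1) restrains the C1 proteases, and the fragments C3a and C5a act on the receptors C3ar1 and C5ar1 of myeloid cells. Tissue macrophages are a known source of C1q, and fibroblasts are a known source of C3 and of C1 inhibitor.

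Levels were unique molecular identifiers (UMIs) summed over the cells of a gate and scaled to 1000000 UMIs of that gate (CPM). A gate was a set of cells with at least 3 distinct markers of an 8-gene list and more than of any other list, and no list held a complement gene. Phagocytes were split into macrophages and monocytes by which of 2 further lists had more genes seen. With 1 library per group there was no test between groups. Brackets hold 95% intervals, exact Poisson for a level, exact conditional binomial for a ratio and Clopper-Pearson for a share, and these, like the limit of 3 counts used where no UMI was seen, cover counting error only. A ratio past 2-fold, for a gene with at least 20 UMIs over both libraries of the gate, stood in for a call. Such 3′ counts do not scale with transcript length. Reads shared with a near copy or an overlapping gene can still be lost, so CPM of different genes can be compared only roughly.

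The T cell libraries held 31690845 UMIs (sensitive) and 35908799 UMIs (resistant), and the whole-tumor libraries 537293 to 1731940. The sensitive T cell library gave 174 macrophages, 20 monocytes, 810 fibroblasts, 99 cancer cells, 136 neutrophils and 1923 T cells, and the resistant one gave 152, 33, 595, 131, 170 and 1800 in the same order. The whole-tumor libraries were mostly neutrophils (319 control, 229 sensitive-labelled and 133 resistant-labelled cells) and held 10, 9 and 37 macrophages and 7, 1 and 5 fibroblasts. Quality filters removed 46.9% of resistant and 9.85% of sensitive T cell barcodes, whose median mitochondrial shares were 8.95% and 2.47%, and the part of this difference in the results was not tested. The T cell libraries shared 31 barcodes. T cell and whole-tumor libraries were made with different feature lists and were not set against each other by level.

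**Figure D1:**
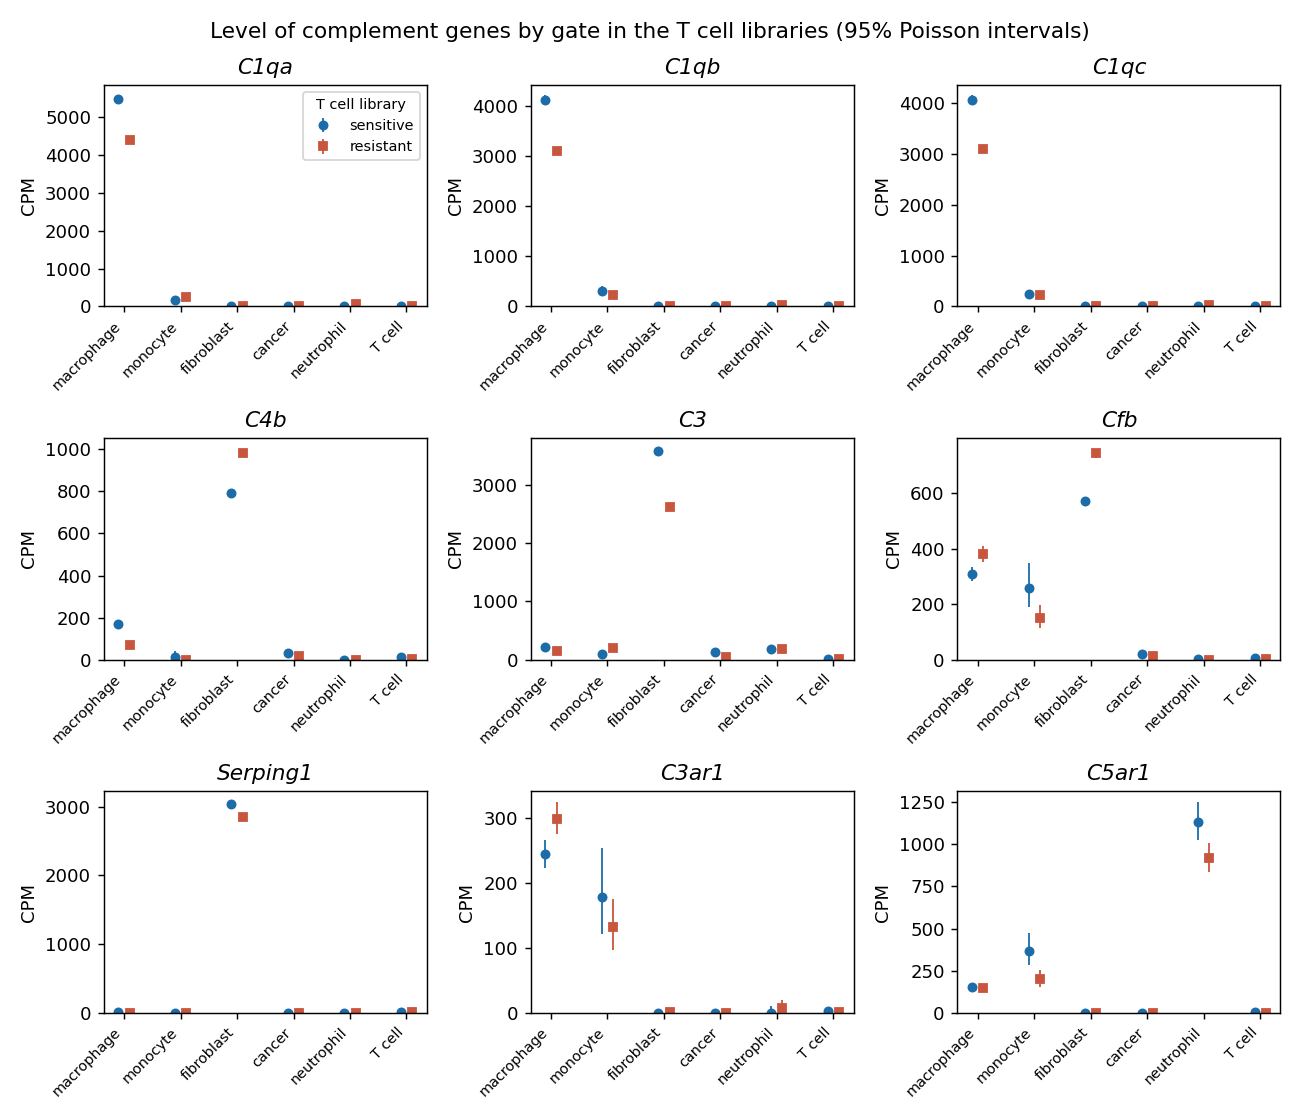
CPM of the 9 complement genes in 5 gates and the T cell gate of the sensitive and resistant T cell libraries, with exact Poisson 95% intervals. The 3 C1q chains peak in the macrophage gate, C3, C4b, Cfb and Serping1 in the fibroblast gate, C3ar1 in the macrophage gate and C5ar1 in the neutrophil gate, in both libraries.

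In the T cell libraries most UMIs of each of the 9 genes lay in 3 kinds of cell. The shares that follow also reflect which cells the depletion left, and in whole tumor C3 was divided otherwise, as given later. Macrophages held 95.0% of the C1qa UMIs of the sensitive T cell library and 94.3% of those of the resistant one, and for C1qb and C1qc the shares were between 93.4% and 95.9%. Fibroblasts held 96.2% and 96.0% of C3, 93.5% and 96.3% of C4b, 89.3% and 87.6% of Cfb, and 98.1% and 97.3% of Serping1. C3ar1 was mostly in macrophages (84.5% and 85.9%), while C5ar1 was divided between neutrophils (47.0% and 52.8%) and macrophages (36.8% and 31.6%). By CPM the leading gate of each gene was the same in both libraries, except that for C3ar1 the macrophage and monocyte gates of the sensitive library were not separated beyond counting error.

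Over whole T cell libraries, cells of all kinds included, the C1q chains were higher in sensitive, at 385 and 313 CPM for C1qa, 291 and 222 CPM for C1qb, and 284 and 221 CPM for C1qc. C3 was at 1654 and 998.5 CPM and Serping1 at 1370.4 and 1073 CPM, whereas C4b (375 and 374 CPM) was level and Cfb (284 and 310.4 CPM), C3ar1 (19.4 and 23.5 CPM) and C5ar1 (27.4 and 31.3 CPM) were lower in sensitive. These sums mix level per cell with the number of cells, since fibroblasts were 810 of 3448 kept cells in sensitive and 595 of 3091 in resistant, so the gates are followed below. In whole tumor, where neutrophils were the most numerous cells, C5ar1 stood above C3 in all 3 libraries, at 265, 542 and 178 CPM against 169.6, 90 and 103 CPM in the control, sensitive-labelled and resistant-labelled order.

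The C1q chains are neighbours on chromosome 4 (GRCm38), all on the minus strand within 18675 bases. C1qb lies at chr4:136880129-136886187, C1qc at chr4:136889804-136893065 and C1qa at chr4:136895917-136898803. RefSeq (GRCm38.p6) promoter windows, 250 bases before to 50 after the start, were given for C1qb and C1qc and are shown because these genes had nearly the same pattern over gates. Capitals mark the ETS core AGGAAG, searched on both strands (CTTCCT is its reverse complement), a motif bound by the myeloid factor PU.1 among others. The first window is chr4:136886151-136886450 and the second is chr4:136892865-136893164, both on the minus strand and printed 5′ to 3′.
C1qb: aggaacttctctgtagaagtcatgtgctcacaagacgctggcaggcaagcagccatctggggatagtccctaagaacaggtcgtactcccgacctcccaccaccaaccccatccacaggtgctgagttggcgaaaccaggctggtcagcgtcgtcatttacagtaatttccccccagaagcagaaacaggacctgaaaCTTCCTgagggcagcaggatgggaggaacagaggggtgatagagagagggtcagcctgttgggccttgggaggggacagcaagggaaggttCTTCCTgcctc
C1qc: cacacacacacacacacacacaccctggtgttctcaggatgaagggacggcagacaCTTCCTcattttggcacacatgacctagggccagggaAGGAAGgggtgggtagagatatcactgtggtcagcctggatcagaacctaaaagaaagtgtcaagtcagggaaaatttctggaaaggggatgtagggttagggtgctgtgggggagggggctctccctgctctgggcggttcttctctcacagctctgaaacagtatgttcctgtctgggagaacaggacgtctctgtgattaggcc
Both windows held 2 matches. The core occurred in 35.4% of all 32851 promoter windows of this length, so a match is common, and the motifs were chosen with the sequences in view.

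Macrophages of the sensitive T cell library had the higher level of all 3 chains. C1qa stood at 5457 CPM in sensitive and 4393 CPM in resistant macrophages, a ratio of 1.24 (1.21 to 1.28). C1qb stood at 4110 and 3090 CPM (1.33, 1.29 to 1.38), and C1qc at 4061 and 3100 CPM (1.31, 1.27 to 1.35). These differences were larger than counting error and well short of 2-fold, and with 1 library on each side the spread between tumors is not known. The chains kept nearly fixed proportions, with C1qa at 40.0% of C1q UMIs in sensitive and 41.5% in resistant macrophages, C1qb at 30.2% and 29.2%, and C1qc at 29.8% and 29.3%.

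C1q was found in most macrophages but unevenly. All 3 chains were seen together in 149 of 174 sensitive macrophages (85.6%) and in 123 of 152 resistant ones (80.9%). With each cell thinned to 1000 UMIs to level the depth, which left out 1 of the 174 sensitive and none of the resistant macrophages, the shares were 76.9% (69.9 to 82.9) and 63.8% (55.6 to 71.4). The median macrophage carried 50.8 C1qa UMIs per 10000 of its own in sensitive and 34.7 in resistant tumors, and the lower quartiles were 18.7 and 5.96 while the upper quartiles were 74.3 and 68.9. The libraries were thus further apart among macrophages low in C1qa than among those high in it. A C1qa UMI was found in 86.1% (80.1 to 90.9) of thinned sensitive and 74.3% (66.6 to 81.1) of thinned resistant macrophages, against 0.525% and 1.00% of thinned T cells, which should lack C1q. Before thinning the macrophage shares were 91.4% and 85.5%, at median depths of 11224.5 and 12384 UMIs against 3998 and 4534 in T cells.

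**Figure D2:**
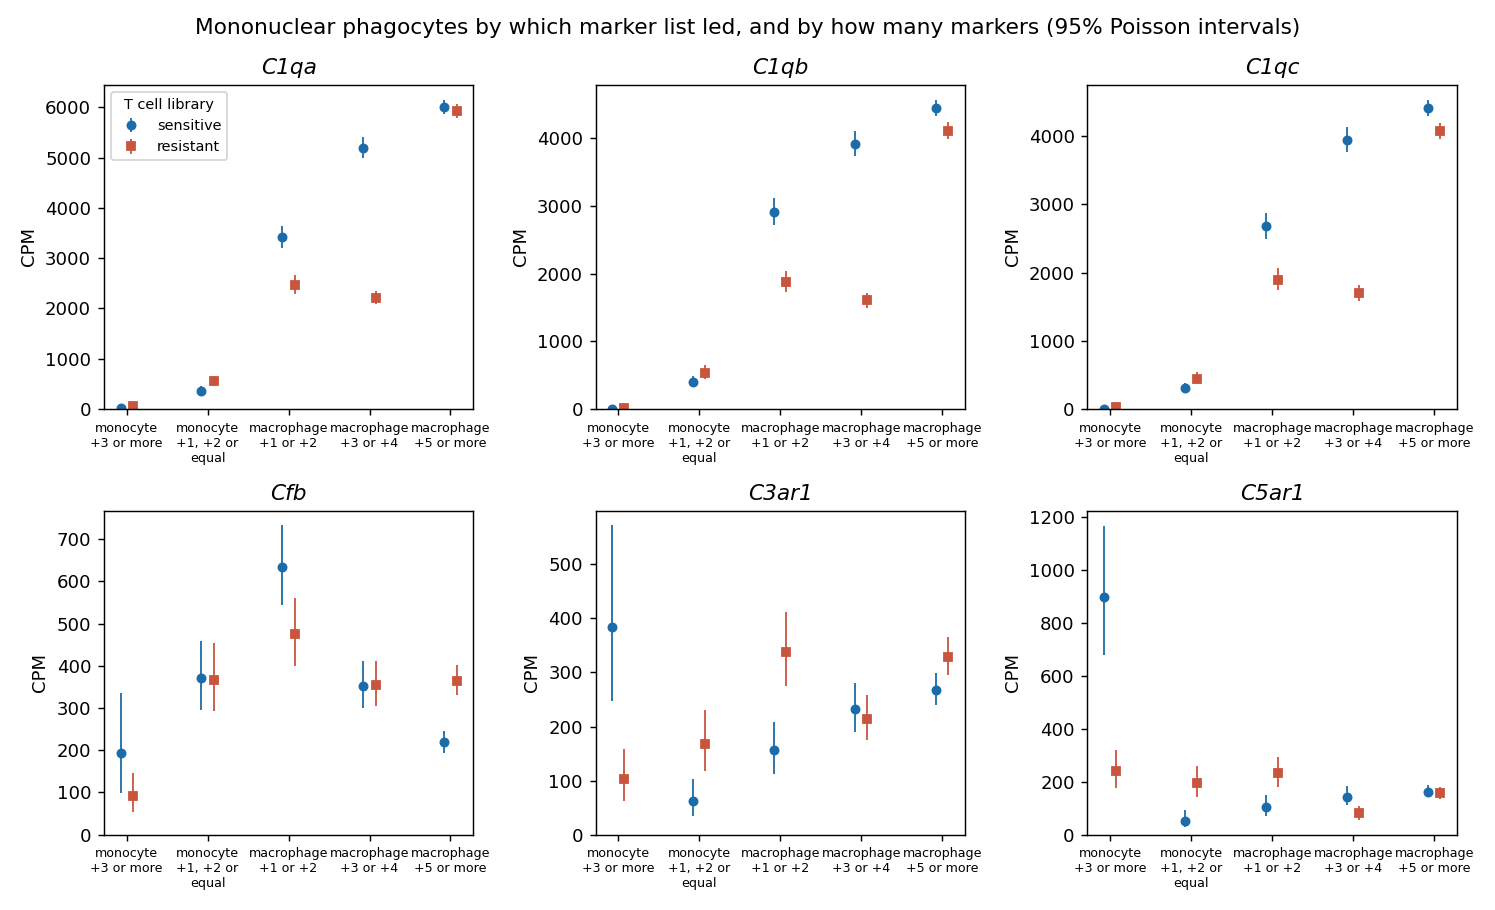
CPM of complement genes over 5 bins of phagocytes, ordered from monocyte markers ahead to macrophage markers ahead, in the sensitive and resistant T cell libraries with exact Poisson 95% intervals. C1qa is higher at the macrophage than at the monocyte end in both libraries, with a dip in resistant cells from 2470 to 2216 CPM before the last bin, and the libraries are furthest apart where the macrophage list led by 3 or 4 genes, at 5196 and 2216 CPM.

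To place this difference, the 205 sensitive and 196 resistant phagocytes were ordered by how many more macrophage than monocyte markers they showed, regardless of complement genes. Where monocyte markers led by 3 or more, C1qa had 1 UMI in 7 sensitive cells and 10 UMIs (51.3 CPM) in 16 resistant cells, and where macrophage markers led by 5 or more it was at 6004 CPM (102 cells) and 5929 CPM (78 cells). At that macrophage end the libraries did not differ beyond counting error for C1qa, with a ratio of 1.01 (0.979 to 1.05), and C1qb and C1qc both stood at 1.08. With a lead of 3 or 4 markers (42 and 46 cells) the ratios were past 2-fold, 2.34 (2.18 to 2.52) for C1qa, 2.45 for C1qb and 2.32 for C1qc. With a lead of 1 or 2 the C1qa ratio was 1.38 (1.25 to 1.52), and where the lists tied or monocyte markers led by 1 or 2 it was below 1, at 0.663 (0.496 to 0.882). C1q was thus highest in sensitive relative to resistant cells at intermediate macrophage markers, and close to level where those markers were most complete. The number of markers seen depends on depth. Median depths (sensitive and resistant) were 7763 and 9239 UMIs with a lead of 3 or 4, and 11991.5 and 13314 with 5 or more. The part of depth in the bins was not tested.

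In the other gates of the T cell libraries C1q was low. The macrophage level of C1qa was 31.5-fold (22.1 to 46.8) that of monocytes for sensitive and 18.4-fold (14.8 to 23.0) for resistant tumors. Monocyte C1qa was at 173 and 239 CPM, a ratio of 0.724 (0.461 to 1.11) that counting error alone spans, and it was 9.54 when cells were gated after thinning. In sensitive monocytes 87.0% of the C1qb UMIs were in 1 cell. In fibroblasts the chains were at 4.76, 4.01 and 2.87 CPM in sensitive and 13.4, 9.56 and 8.08 CPM in resistant cells, so all 3 were past 2-fold lower in sensitive, where 1.8% of eligible genes were. The phagocyte list moved with them, at 22.1 and 50.1 CPM in these fibroblast gates, and its part was not tested. When a fibroblast had to lead by at least 2 markers, the ratios were 0.655, 0.827 and 0.675 and no chain was past 2-fold, nor was any with gating after thinning, whereas as a mean over cells they were 0.166, 0.174 and 0.216. In neutrophils C1qa had 0 UMIs in sensitive and 28 in resistant cells. That is 6.34-fold lower with sensitive set at the limit of 3 counts and the 28 taken as exact. However, 71.4% of the 28 were in 1 cell, and the ratio was 0.450 with gating after thinning and 0.175 with a mitochondrial limit of 20%. C1qb was at 2 and 18 UMIs, and the phagocyte list stood at 930 and 1841 CPM in these gates.

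Downstream of C1q, C4b encodes complement C4, at chr17:34728380-34743882 on the minus strand. Its near copy C4a (chr17:34809092-34823464) is identical in 489 of the last 500 bases (97.8%), the end that 3′ counting reads, so C4b counts are uncertain by whatever reads were split or dropped between them. Fibroblast C4b was lower in the sensitive library, at 793 against 984 CPM (0.805, 0.783 to 0.828), and fibroblast C4a was at 11.6 and 12.9 CPM. Macrophage C4b went the other way, with 343 UMIs (171 CPM) in sensitive and 130 UMIs (69.7 CPM) in resistant cells, a ratio of 2.46 (2.0 to 3.03). It was the only one of 8 eligible complement genes past 2-fold in macrophages, where 3.78% of all eligible genes were past 2-fold higher in sensitive. Without Apoe and Lgmn in the macrophage list the ratio was 1.96, short of 2-fold.

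The macrophage C4b difference rested on few cells. A single sensitive macrophage with a marker lead of 1 or 2 held 75 of the 97 C4b UMIs of its bin, and another with a lead of 3 or 4 held 36 of 118. In the latter bin C4b was seen in 12 of 42 sensitive and 5 of 46 resistant cells, and its ratio was 13 (6.85 to 27.9). Where macrophage markers led by 5 or more, C4b did not differ beyond counting error, at 101 and 99.6 CPM (1.01, 0.776 to 1.32). The fibroblast list summed to 79 and 56 UMIs in the macrophage gates, with 1 and 2 of its 8 markers at 0, and its part in the C4b values was not tested.

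C3 (chr17:57203970-57228136, minus strand), on which all pathways converge, had the highest CPM of the 9 genes in sensitive fibroblasts. It stood at 3595 CPM in sensitive and 2624 CPM in resistant fibroblasts, a ratio of 1.37 (1.35 to 1.39). The median fibroblast had 34.4 and 28.3 C3 UMIs per 10000, and after thinning 86.5% and 83.0% of fibroblasts had a C3 UMI, against 0.787% and 0.167% of T cells. Before thinning the fibroblast shares were 96.8% and 98.7%, at median depths of 13459 and 13692 UMIs. The fibroblast level was 16.5-fold the next highest gate (macrophages) in sensitive and 13.3-fold the next (monocytes) in resistant cells. Below fibroblasts the order was not firm. Sensitive macrophages and neutrophils were a factor of 1.16 (0.890 to 1.53) apart, and neutrophil C3 was at 188 and 184 CPM with a ratio of 1.02 (0.733 to 1.42).

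The RefSeq window of C3, chr17:57228087-57228386 on the minus strand of GRCm38.p6, is shown beside the C1q windows because C3 is expressed in other cells. Capitals mark its 1 match to the C/EBP motif TTGCNNAA, searched on both strands and held by 10.8% of windows, and it had no AGGAAG match.
C3: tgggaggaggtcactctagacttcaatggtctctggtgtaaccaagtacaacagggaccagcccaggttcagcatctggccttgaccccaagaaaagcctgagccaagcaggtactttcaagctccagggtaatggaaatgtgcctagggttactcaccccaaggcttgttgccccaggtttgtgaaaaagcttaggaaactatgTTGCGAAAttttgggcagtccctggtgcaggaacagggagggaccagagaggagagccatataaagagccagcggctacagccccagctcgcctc
Neither this nor the windows of C1qb, C1qc, C3ar1 and C5ar1 held the interferon-type motif TTCNNNGAA, which 8.30% of all windows hold.

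C3 was also the member that differed most in cancer cells. It had 297 UMIs (122 CPM) in 99 sensitive and 106 UMIs (36.5 CPM) in 131 resistant cancer cells, a ratio of 3.36 (2.68 to 4.23), where 2.48% of eligible genes were past 2-fold higher. A C3 UMI was present in 57 of 99 and in 41 of 131 cells, with at most 23 and 19 in a cell, at median depths of 21078 and 22493 UMIs. After thinning, the share of cancer cells with C3 was 11.1% (5.68 to 19.0) for sensitive and 3.85% (1.26 to 8.75) for resistant tumors, against 0.787% and 0.167% of T cells. The T cell gate itself had C3 at 16.5 and 3.59 CPM, a difference in the same direction, and the part of free RNA in the cancer cell values was not tested. The fibroblast list was at 46.6 and 37.9 CPM in these gates. Leaving out cells with 2 or more fibroblast markers, an alternative chosen after the data were seen, left 83 and 121 cells at 105 and 35.4 CPM (2.97-fold). The ratio of C3 to Serping1 UMIs, 1.18 and 0.919 in fibroblasts, was 74.3 and 35.3 in cancer cells, on 4 and 3 Serping1 UMIs. It was also high in neutrophils (64 and 92, on 1 Serping1 UMI each) and sensitive macrophages (48.7, on 9). In the T cell gate it was 1.64 and 0.440. C4b (30.5 and 17.6 CPM, 1.74, 1.20 to 2.53) and Cfb (21.4 and 14.1 CPM, 1.52, 0.989 to 2.35) were low in cancer cells, and of the 3 eligible genes C3 alone passed 2-fold.

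In macrophages C3 was at 218 and 148 CPM (1.48, 1.27 to 1.72). Where macrophage markers led by 5 or more it was at 204 and 104 CPM, a ratio of 1.96, and with a lead of 3 or 4 the ratio was 0.832. Monocyte C3 was lower in sensitive, at 104 and 197 CPM (0.527, 0.295 to 0.895), over 20 and 33 cells, but the ratio was 0.967 without Apoe and Lgmn in the macrophage list.

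Factor B, the serine protease that pairs with C3b, is encoded by Cfb at chr17:34856374-34862518 on the minus strand, where the predicted gene Gm20547 overlaps it on the same strand. Counts of Cfb are thus uncertain by whatever reads were dropped between the overlapping genes. Cfb was lower in sensitive fibroblasts, at 574 against 744 CPM (0.771, 0.746 to 0.796), and lower in sensitive macrophages, at 307 against 379 CPM (0.810, 0.726 to 0.904). The fibroblast level was 1.87-fold and 1.96-fold the macrophage level, so unlike C3, C4b and Serping1 it was shared between both cell types. Along the phagocyte order Cfb peaked where macrophage markers led by 1 or 2, at 633 and 475 CPM. It fell towards the macrophage end to 219 CPM in sensitive and 365 CPM in resistant cells (0.600, 0.512 to 0.701), which is where the libraries were furthest apart in the direction of the whole gate. Monocyte Cfb had the opposite direction, at 259 and 152 CPM (1.71, 1.12 to 2.59).

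Among the 5 main gates Serping1 (chr2:84765387-84775444, minus strand) was close to a fibroblast-only transcript. It was at 3039 CPM in sensitive and 2855 CPM in resistant fibroblasts, a ratio of 1.06 (1.05 to 1.08), the smallest difference of the 4 fibroblast genes. Thinned fibroblasts with a Serping1 UMI made up 90.6% and 89.4%, against 0.420% and 0.557% of T cells, and 98.9% and 99.7% of fibroblasts before thinning. Macrophages had 9 and 0 UMIs, cancer cells 4 and 3, and neutrophils 1 and 1. Outside the main gates Serping1 was also seen in other stromal cells, which were few. Endothelial cells (7 sensitive and 6 resistant) had 45 of 107174 and 10 of 127215 UMIs, and 1 sensitive mural cell had 15 of 17422. Over the whole gate C3 was thus higher, C4b and Cfb were lower and Serping1 was nearly level in sensitive, and the Cfb direction held in 1 of the 3 sub-gates described next.

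**Figure D3:**
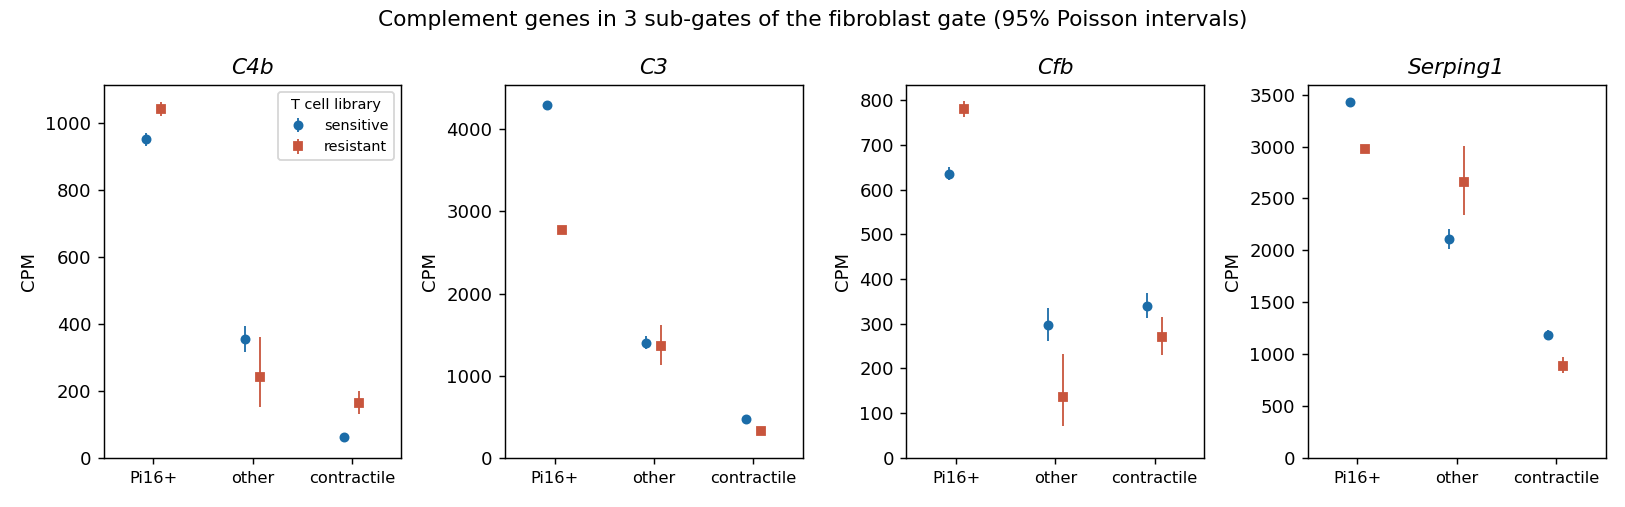
CPM of C4b, C3, Cfb and Serping1 in 3 sub-gates of the fibroblast gate (Pi16+, contractile and other) in the sensitive and resistant T cell libraries, with exact Poisson 95% intervals. All 4 genes are highest in the Pi16+ cells in both libraries, and contractile cells have the lowest C3, C4b and Serping1.

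The fibroblast gate was divided by marker genes other than complement into cells with a UMI of Pi16 (a marker of adventitial fibroblasts), contractile cells with UMIs of both Acta2 and Tagln and none of Pi16, and the rest. Pi16+ cells were 703 of 810 sensitive (86.8%) and 570 of 595 resistant fibroblasts (95.8%), so the mix differed between libraries. Median depths were 13062 and 13585.5 UMIs in Pi16+ cells, 30277.5 and 29428 in contractile cells, and 8853 and 11397 in the rest. Membership by a single UMI depends on depth, and the part of depth in the sub-gates was not tested. Within Pi16+ cells C3 was at 4298 and 2779 CPM, and its ratio of 1.55 (1.52 to 1.57) was larger than over the whole gate. C4b (951 and 1042 CPM, 0.912) and Cfb (636 and 780 CPM, 0.815) remained lower in sensitive, and Serping1 was at 3426 and 2978 CPM (1.15). Contractile fibroblasts (50 and 18 cells) had C3 at 480 and 325 CPM (1.48) and C4b at 61.6 and 163 CPM, a ratio of 0.378 (0.285 to 0.504) past 2-fold. Their Cfb was higher in sensitive, at 340 and 271 CPM (1.26, 1.05 to 1.51), as was Serping1 (1.33, 1.21 to 1.46). In the other fibroblasts (57 and 7 cells) C3 was at 1404 and 1360 CPM (1.03), and the resistant side rested on 7 cells. Higher C3 with lower C4b in sensitive was thus found in both Pi16+ and contractile cells, whereas in the rest C4b was at 354 and 241 CPM (1.47, 0.963 to 2.36), Cfb at 297 and 136 CPM (2.18, 1.26 to 4.16, on 13 resistant UMIs) and Serping1 at 0.794 (0.696 to 0.909) of the resistant level.

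The receptors were read last. C3ar1 (chr6:122847138-122856161, minus strand), which binds C3a, was lower in sensitive macrophages, at 244 against 299.5 CPM (0.816, 0.721 to 0.923). Its macrophage level was 1.37-fold (0.951 to 2.03) the monocyte level in sensitive and 2.27-fold (1.68 to 3.12) in resistant cells, so these neighbours were not separated in the sensitive library. Monocytes had 179 and 132 CPM (1.35, 0.830 to 2.17), a ratio that fell to 0.406 with gating after thinning and to 0.664 without Apoe and Lgmn. Thinned macrophages with a C3ar1 UMI were 24.9% and 21.1%, against 0.0525% and 0.111% of T cells, and before thinning 73.0% and 80.3% of macrophages had one.

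C5ar1 (chr7:16246743-16259540, minus strand), which binds C5a, was highest in neutrophils. It was at 1133 CPM in sensitive and 918 CPM in resistant neutrophils, a ratio of 1.24 (1.08 to 1.42), and the median neutrophil had 10.4 and 7.07 UMIs per 10000. Thinned shares of neutrophils with a C5ar1 UMI were 61.0% and 57.7%, against 0.0525% and 0.111% of T cells, and 81.6% and 80.0% before thinning at median depths of 2195.5 and 2505 UMIs. The order was neutrophils, monocytes, macrophages in both libraries, with neutrophils 3.07-fold (2.35 to 4.07) and 4.60-fold (3.57 to 5.99) above monocytes and monocytes 2.45-fold (1.84 to 3.22) and 1.36-fold (1.03 to 1.77) above macrophages. Macrophage C5ar1 did not differ beyond counting error, at 151 and 147 CPM (1.02, 0.865 to 1.21). Monocyte C5ar1 was at 369 and 199.7 CPM (1.85, 1.30 to 2.63), but 46.9% of the sensitive UMIs were in 1 of 20 cells, and the ratio was 0.568 when cells were gated after thinning and 1.01 without Apoe and Lgmn in the macrophage list.

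The promoter window of C5ar1, chr7:16259289-16259588 on the minus strand of GRCm38.p6, held 3 AGGAAG matches, all read as CTTCCT on the printed strand, 2 of them overlapping in the longer run of capitals. It is shown because C5ar1 is the member of neutrophils.
C5ar1: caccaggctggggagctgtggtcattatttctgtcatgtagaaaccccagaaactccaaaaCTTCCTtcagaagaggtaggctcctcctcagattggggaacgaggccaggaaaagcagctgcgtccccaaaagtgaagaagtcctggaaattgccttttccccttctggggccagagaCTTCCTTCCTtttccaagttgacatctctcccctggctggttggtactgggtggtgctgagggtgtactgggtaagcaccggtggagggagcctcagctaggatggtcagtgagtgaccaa
The window of C3ar1 held 1 match, and no window was used here for C1qa, C4b, Cfb and Serping1, so the windows allow no comparison between genes of myeloid cells and genes of fibroblasts.

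**Figure D4:**
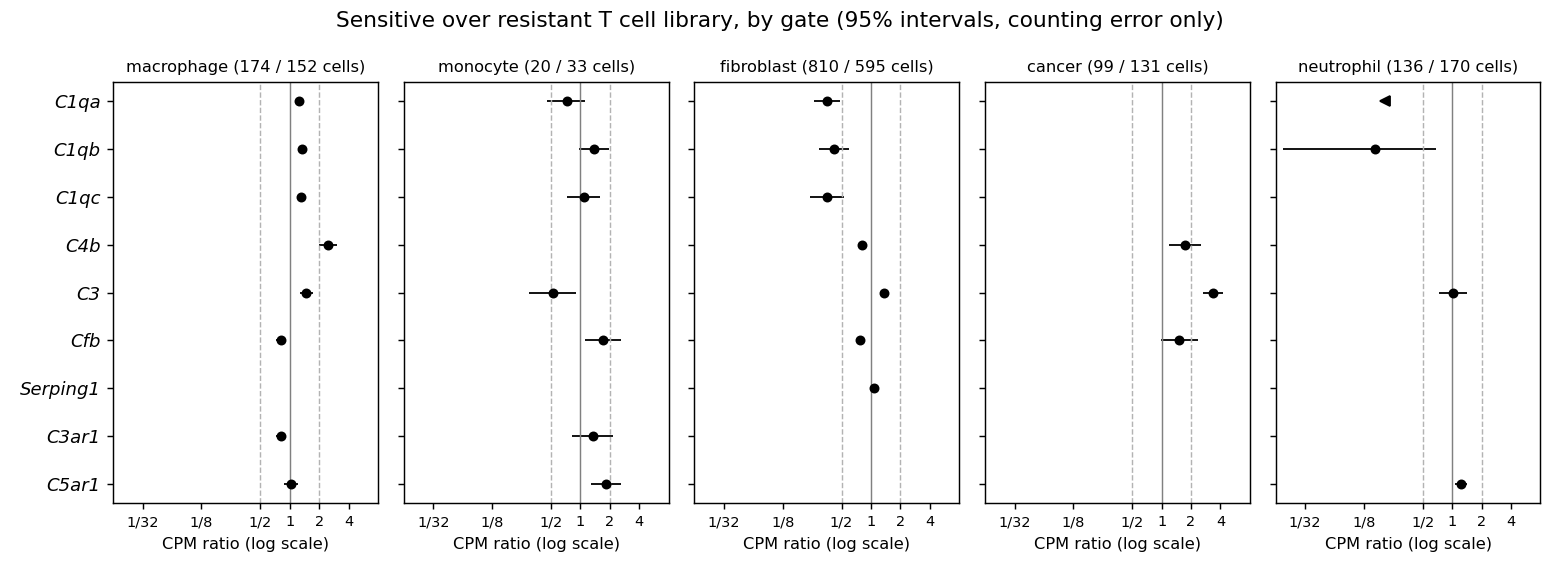
Ratio of CPM in the sensitive over the resistant T cell library (log axis) with exact conditional 95% intervals, for each complement gene with at least 20 UMIs in a gate. The solid line is 1 and the dashed lines are 2-fold, the left triangle is the upper limit of C1qa in neutrophils with 0 sensitive UMIs, and C3 in cancer cells (3.36) and C4b in macrophages (2.46) lie beyond 2-fold on the higher side.

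Counted over gates, 1 of 8 eligible members was past 2-fold higher in sensitive macrophages, 0 of 7 in monocytes, 0 of 7 in fibroblasts, 1 of 3 in cancer cells and 0 of 4 in neutrophils. The shares of all eligible genes past 2-fold higher were 3.78%, 5.65%, 4.41%, 2.48% and 3.45% in that order. Past 2-fold lower were 3 of 7 members in fibroblasts and 2 of 4 in neutrophils, all of them C1q chains at low levels, beside 1.8% and 5.94% of all eligible genes. The 2 in neutrophils, C1qa (0 and 28 UMIs) and C1qb (2 and 18 UMIs), met the limit of 20 UMIs almost wholly through the resistant library. The filter thus favoured the lower direction for them, and their count is not separate support. None was past 2-fold lower in macrophages, monocytes or cancer cells, where 1.55%, 5.24% and 2.01% of genes were. The members' median log2 ratio was 0.35 in macrophages (0.05 over all eligible genes) and -0.38 in fibroblasts (0.08 over all), where 3 of the 7 were the low C1q chains and the wider list of 53 genes below had a median of 0.22. It was 0.44 in monocytes (0.04 over all), 0.80 in cancer cells (0.07 over all) and -1.29 in neutrophils (0.02 over all), on 7, 3 and 4 members. In the T cell gate 6 of 9 members were past 2-fold higher in sensitive beside 6.5% of genes, and whether complement UMIs were background there was not tested. There C3 stood at 16.5 and 3.59 CPM (4.60-fold) with 45.1% of the sensitive UMIs in 1 cell, and C1qa at 24.6 and 10.0 CPM with 59.0% in 1 cell.

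A wider list of 53 complement genes, which includes the 9, was read in the same way. In macrophages 21 were eligible, of which 3 were past 2-fold higher and 1 lower in sensitive, beside 3.78% and 1.55% of all eligible genes. Besides C4b, the higher genes included Fcna (ficolin A, a lectin-pathway recognition protein) at 115 and 31.1 CPM (3.69, 2.76 to 5.01). Cfp (properdin, which stabilises the alternative convertase) was at 471 and 242 CPM (1.94, 1.74 to 2.18), and C2 was lower, with 8 and 24 UMIs. The list's median log2 ratio in macrophages was 0.39, against 0.05 over all eligible genes.

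In fibroblasts 28 of the 53 were eligible, with 3 past 2-fold higher and the 3 C1q chains lower, beside 4.41% and 1.8% of all eligible genes. The higher genes were Clu (clusterin) at 68.1 and 26.6 CPM (2.56), Masp1, a lectin-pathway protease, at 23.7 and 9.07 CPM (2.61), and Cfi (factor I, which cleaves C3b) at 53 and 20 UMIs (2.03). The proteases of C1, C1s1 and C1ra, were at 584 and 541 CPM (1.08) and at 473 and 407 CPM (1.16), so the targets of the C1 inhibitor were found in the same gate as Serping1. In cancer cells 9 were eligible and 3 were higher (2.48% of all eligible genes were), C3, C1s1 at 21.8 and 8.95 CPM (2.44) and C1ra at 31.7 and 15.5 CPM (2.05), while Clu, the list gene of highest level there, was at 1389 and 1165 CPM (1.19). In neutrophils 8 were eligible, 0 were higher and 2 were lower, beside 3.45% and 5.94% of genes, and in monocytes 0 of 14 passed in either direction, beside 5.65% and 5.24%.

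Over 7 gates in both T cell libraries (14 points that share libraries) and 10974 genes, the genes most like C1qa by Pearson r of log2 CPM were C1qb (0.994), C1qc (0.993) and Msr1 (0.990). For C3ar1 they were Msr1 (0.998), C1qc (0.994) and C1qb (0.994), so C3ar1 lay in the C1q pattern over these 7 gates. The monocyte gate was not among them, with 20 sensitive cells against a minimum of 30. Macrophage over monocyte level was 1.37 (sensitive) and 2.27 (resistant) for C3ar1 but 31.5 and 18.4 for C1qa, so monocytes set these genes apart. C5ar1 lay nearest Clec4d (0.996), Sirpb1a (0.995) and Cxcl3 (0.994). Serping1 was nearest Nkd2 (0.998), Map1a (0.997) and Tmem45a (0.997), and C3 nearest Serinc1 (0.965), Adm (0.953) and Fndc3b (0.944). Genes near C4b included Pmp22 (0.977) and Ctsf (0.970), and Cfb was nearest Psd3 (0.982), Slc6a8 (0.975) and Mmp19 (0.974).

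The whole-tumor libraries gave the only saline control, at far lower cell numbers. In macrophages C1qa was at 3490 CPM (2962 to 4085) in the control, 1281 CPM (993 to 1627) in the sensitive-labelled and 3215 CPM (2986 to 3457) in the resistant-labelled library. The sensitive-labelled library was the low one, at 0.398 (0.305 to 0.512) of the resistant-labelled and 0.367 of the control level, and the other two did not differ beyond counting error (0.921, 0.774 to 1.10). C1qb and C1qc were at 0.342 (0.232 to 0.488) and 0.397 (0.280 to 0.549) of the resistant-labelled level. With gating after thinning the 3 ratios were 0.0387 for C1qa, 0 for C1qb and 0.123 for C1qc, and that of C3ar1 went from 0.942 (0.501 to 1.66) to 2.03. These values rest on 10, 9 and 37 cells. A single cell held 92.5% of the sensitive-labelled C1qa UMIs and another held 54.8% of those of the control, and only 4 of 9 sensitive-labelled macrophages had any.

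**Figure D5:**
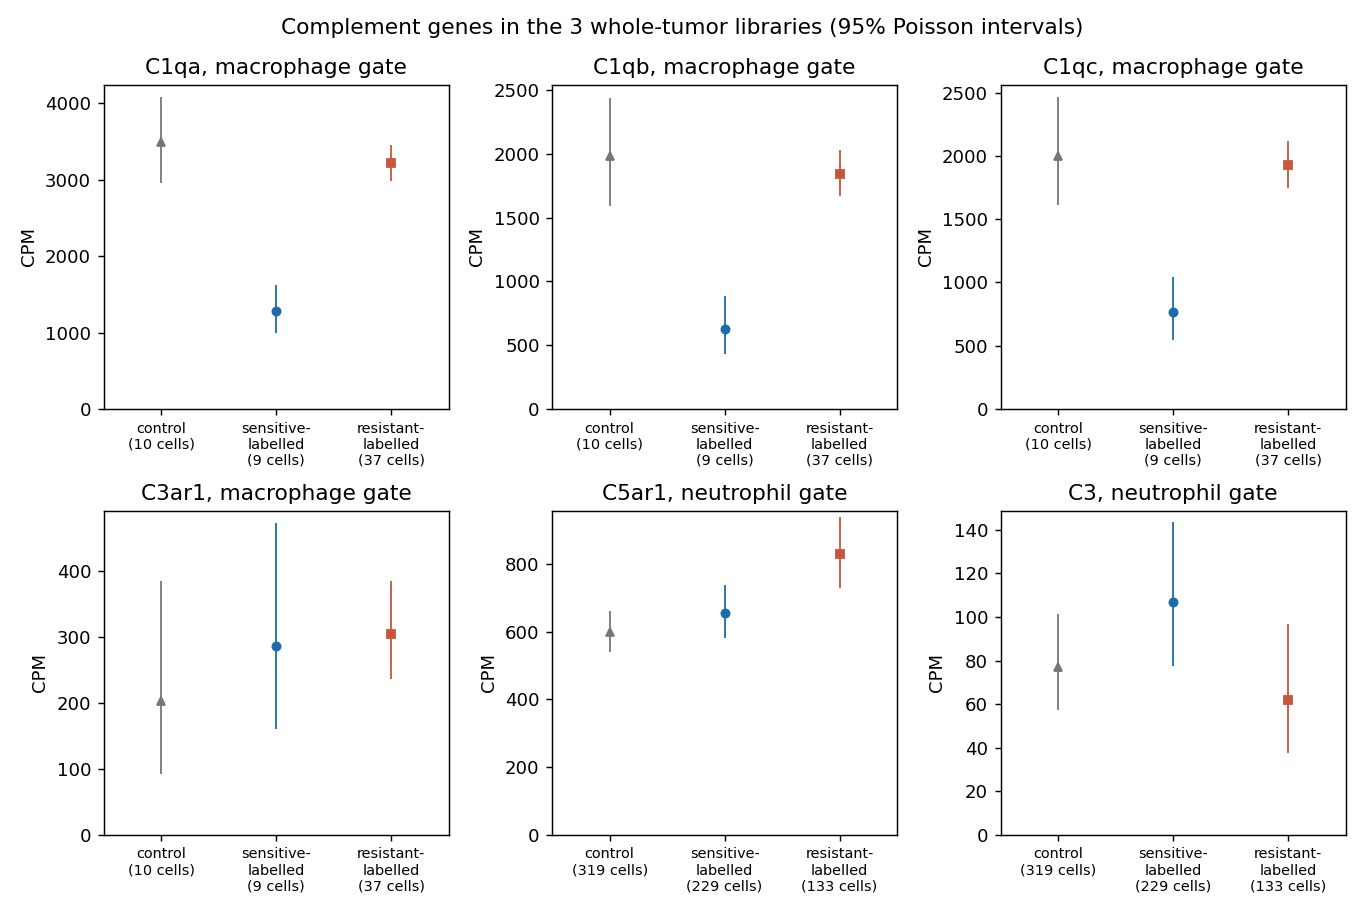
CPM of C1qa, C1qb, C1qc and C3ar1 in the macrophage gate and of C5ar1 and C3 in the neutrophil gate of the control, sensitive-labelled and resistant-labelled whole-tumor libraries, with exact Poisson 95% intervals and cell numbers. The sensitive-labelled library is lowest for the C1q chains, on 9 macrophages, and the resistant-labelled library is highest for neutrophil C5ar1, at 829 CPM.

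All 3 C1q chains were seen together in 6 of 10 control, 2 of 9 sensitive-labelled and 28 of 37 resistant-labelled macrophages, and C1qa made up 46.7%, 47.9% and 46.0% of C1q UMIs. The macrophage list itself was at 22877, 11740 and 17465 CPM in these gates, so it too was lowest in the sensitive-labelled library, and its part was not tested. In the monocyte gate of the resistant-labelled library C1qa was at 1472 CPM and C1qb and C1qc at 1265 CPM each, with all of these UMIs in 1 of 7 cells. Of 6 eligible members, 4 (the C1q chains, and C3 on 2 and 19 UMIs) were past 2-fold lower in the sensitive-labelled than in the resistant-labelled macrophages, where 16.7% of all eligible genes were. Over whole libraries the C1qa level was 99.5, 144 and 473 CPM, an order that also follows the share of macrophages in each library (10 of 488, 9 of 269 and 37 of 263 kept cells).

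Neutrophils, the best sampled cells of these libraries, had C5ar1 at 599 CPM in the control, 656 CPM in the sensitive-labelled and 829 CPM in the resistant-labelled library. The resistant-labelled level was 1.38-fold (1.18 to 1.63) the control, the sensitive-labelled level was 0.791 (0.664 to 0.943) of the resistant-labelled, and control and sensitive-labelled did not differ beyond counting error (1.10, 0.935 to 1.28). Neutrophils with a UMI of Ngp or Camp, granule genes of less mature cells, made up 17.6%, 8.30% and 3.01% and had C5ar1 at 424, 483 and 783 CPM. The remaining neutrophils had 691, 681 and 831 CPM, so the resistant-labelled library was also highest without them. Neutrophil C3 was at 77.1, 107 and 62.0 CPM, with 38.6% of the sensitive-labelled UMIs in 1 cell. Its sensitive over resistant ratio was 1.72 (0.986 to 3.13) and fell to 0.798 when cells were gated after thinning, so its direction was not settled.

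Control and resistant-labelled fibroblasts (7 and 5 cells) had C3 at 1088 and 705 CPM (resistant over control 0.648, 0.469 to 0.885), C4b at 505 and 502 CPM (0.994), Cfb at 86.7 and 215 CPM (2.48, 1.11 to 5.81) and Serping1 at 639 and 657 CPM (1.03). Cfb was the only one of 4 eligible members past 2-fold there, on 11 and 18 UMIs, beside 11.6% of genes. Cancer cells (26 control and 43 resistant-labelled) had C3 at 147 and 77.7 CPM (0.527, 0.375 to 0.739). In the control library cancer cells held 27.7% of C3 UMIs and fibroblasts 49.6%, and in the resistant-labelled library they held 38.8% and 33.1%. In the sensitive-labelled library, with 3 cancer cells and 1 fibroblast, neutrophils held 91.7% of C3 UMIs, and in the control they held 18.3%. Serping1 had 0 UMIs in the macrophage, monocyte and cancer gates of all 3 whole-tumor libraries.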

How the data were processed

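Per the labels and methods, the authors used Cell Ranger against the mm10 mouse genome, and the deposited values are raw UMI counts for each gene in each barcode, not normalized. File headers give version 3.0.1 for the 3 whole-tumor and 6.0.0 for the 2 T cell libraries. Whole-tumor mitochondrial features were all at 0 UMIs.

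A barcode needed 200 genes in whole tumor, with a mitochondrial share of no more than 20%, and 500 genes and 10% in the T cell libraries. Scrublet (scanpy 1.11.5) scores removed 112 sensitive and 159 resistant putative doublets, at 0.8% per 1000 barcodes, and none from whole tumor. Tied phagocytes were neither macrophage nor monocyte. Counts were summed by gate as CPM, with intervals from scipy 1.17.1. Genes of like pattern were ranked on log2(CPM + 10). Gating, ratios and intervals were tested on simulated data. The simulated gate sums were Poisson counts, as the intervals assume, and held no extra spread between cells, so they do not test that assumption. The members, lists and tests were chosen with earlier results of these data known. The named genes were the 9 members, list genes past 2-fold in the gate of their highest level or among the 5 highest of a gate, and the 3 most alike genes. Other list genes were chosen after their values were seen. Gate rules, filters, doublet removal, scaling and the macrophage list were varied. Locations follow GENCODE M21. Some results that these rules would name are not reported here.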

Additional observations from a re-analysis of the deposited data

Results flagged for a closer look

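For 4 genes the sensitive over resistant ratio lay above 1 in the T cell libraries and below 1 in the whole-tumor libraries with both counting intervals clear of 1. In macrophages it was 1.24 and 0.398 for C1qa, 1.33 and 0.342 for C1qb, and 1.31 and 0.397 for C1qc. In neutrophils it was 1.24 and 0.791 for C5ar1. The whole-tumor ratios follow the labels, which no measurement here settles, and with sensitive and resistant exchanged they would lie above 1. With 1 library per group and different preparations, the difference between these ratios was not tested, and the whole-tumor macrophage values rest on 9 sensitive-labelled cells, of which 1 held 92.5% of the C1qa UMIs. Macrophage C3 (1.48 and 0.456) and C5ar1 (1.02 and 0.867) also lay on opposite sides of 1, but their whole-tumor intervals, 0.0515 to 1.89 and 0.351 to 1.88, included 1.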

How the results depend on the processing

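No paired analysis was possible because each group had 1 library, and no replicate could be left out. At least 4 markers per gate left each ratio within its interval and each member count as it was, and at least 500 genes per whole-tumor cell left the 8 whole-tumor ratios within theirs. Gating after thinning moved 17 of 45 ratios and counts and turned 5 ratios to the other side of 1. The macrophage C1qa ratio in the T cell libraries (1.24) ranged from 1.20 (scaled by the median gene ratio) to 1.26. In whole tumor (0.398) it was 0.0387 when cells were gated after thinning and 0.289 as a mean over cells. Fibroblast C3 (1.37) was 1.39 without doublet removal, 1.27 as a mean over cells and 1.29 when scaled. C3 in cancer cells ranged from 2.97 to 3.79. Members past 2-fold higher in macrophages fell from 1 to 0 without Apoe and Lgmn in the list, and in monocytes went from 0 to 3 with gating after thinning and to 1 without doublet removal. Members past 2-fold lower in fibroblasts fell from 3 to 0 with a lead of at least 2 markers and to 0 with gating after thinning. In neutrophils they fell from 2 to 1 with that lead and to 0 with at least 100 UMIs per gene, and were 3 with a mitochondrial limit of 20% or without doublet removal. In monocytes they went from 0 to 1 with that lead, to 2 with gating after thinning and to 1 with a mitochondrial limit of 20%, and without doublet removal they went from 0 to 1 in macrophages and in cancer cells. The cause of these shifts was not tested. Monocyte ratios rest on 20 and 33 cells, and whole-tumor macrophage ratios on 10, 9 and 37. Neutrophil C3 in whole tumor went from 1.72 to 0.798 with gating after thinning.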
